A study of Homo sapiens with 6 samples.

Results

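The MYC network is a set of transcription factors that meet on the same DNA motif through a shared partner, MAX. All 9 genes named for this network were found by symbol among the 30726 gene symbols of the deposited table: MYC, MAX, MXI1, MXD1, MXD3, MXD4, MNT, MGA and MLX. RNA bound to polysomes, the clusters of ribosomes on mRNAs under translation, was sequenced from wild-type cells of 3 established human breast cancer lines. These were SUM1315 (triple negative), SKBR3 (luminal, HER2+) and T47D (luminal A). Each line gave 1 library from cells at 21% oxygen (normoxia) and 1 from cells held at 1% oxygen for 8 hours (hypoxia), so the lines are the only replication. All cells received cycloheximide before lysis, and each line had its own growth medium (DMEM-F12 with insulin and EGF for SUM1315, RPMI with insulin for T47D, and McCoy's 5A for SKBR3). Whole-lysate RNA was not analysed here, so mRNA amount and ribosome loading cannot be told apart, nor can fewer cells with an mRNA and less of it per cell.

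MYC pairs with MAX on the E-box sequence CACGTG and activates genes of ribosome production, nucleotide synthesis and cell growth. MXI1, MXD1, MXD3, MXD4 and MNT also pair with MAX, and they recruit the SIN3 corepressor to the same sites. MGA pairs with MAX within a Polycomb repressor complex, and MLX is a MAX-like partner of the glucose-sensing Mondo factors as well as of some MXD proteins and MNT. MXI1 is a known target of the hypoxia-inducible factors (HIF) and an antagonist of MYC, so the balance of MYC and MXI1 is a usual question in hypoxic tumour cells.

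Levels are in RPKM (read counts divided by transcript length in kilobases and by library size) and differences are log2 fold changes of RPKM + 1. A gene counts as higher or lower where the Benjamini-Hochberg adjusted p of limma, over the 10253 genes that reached 1 RPKM in 3 or more libraries, was under 0.05. Of the 9 members, 7 were tested, and each of these stood at 1 RPKM or more in all 6 libraries. MXD1 and MGA were below the filter, with 2 and 1 libraries at 1 RPKM or more. Under hypoxia 2 of the 7 tested members rose, MYC and MXI1, and none fell. Among all tested genes 6.38% were called, 4.12% higher and 2.26% lower. The median log2 fold change of the 7 members was 0.19, and that of all tested genes was -0.01.

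Depth was similar across libraries: 1 RPKM on a transcript of 1 kb stood for 21.6 to 33.3 reads or read pairs, and 3 reads for 0.0900 to 0.139 RPKM. Line markers lay where the labels put them. ERBB2 was highest in SKBR3 (615 and 743 RPKM), ESR1 reached 1 RPKM in T47D only (4.54 and 5.18 RPKM), and VIM was highest in SUM1315 (407 and 1161 RPKM). PTPRC, a leukocyte marker, and PECAM1, an endothelial one, were at or below 0.00773 RPKM in every library, and CD3E, a T cell marker, was at 0 in 4 libraries and at most 0.0952 RPKM. Of the same list of 6 leukocyte and stromal markers, CD68 and COL1A1 were detected in all libraries, and the 6 summed to 137 to 163 RPKM in SUM1315 and to 3.19 to 7.06 RPKM in SKBR3 and T47D. The part of other cell types in the results was not tested. All 9 tested genes of a 10-gene HIF target check rose under hypoxia, with a median of 2.42 (CA9 was below the filter).

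**Figure D1:**
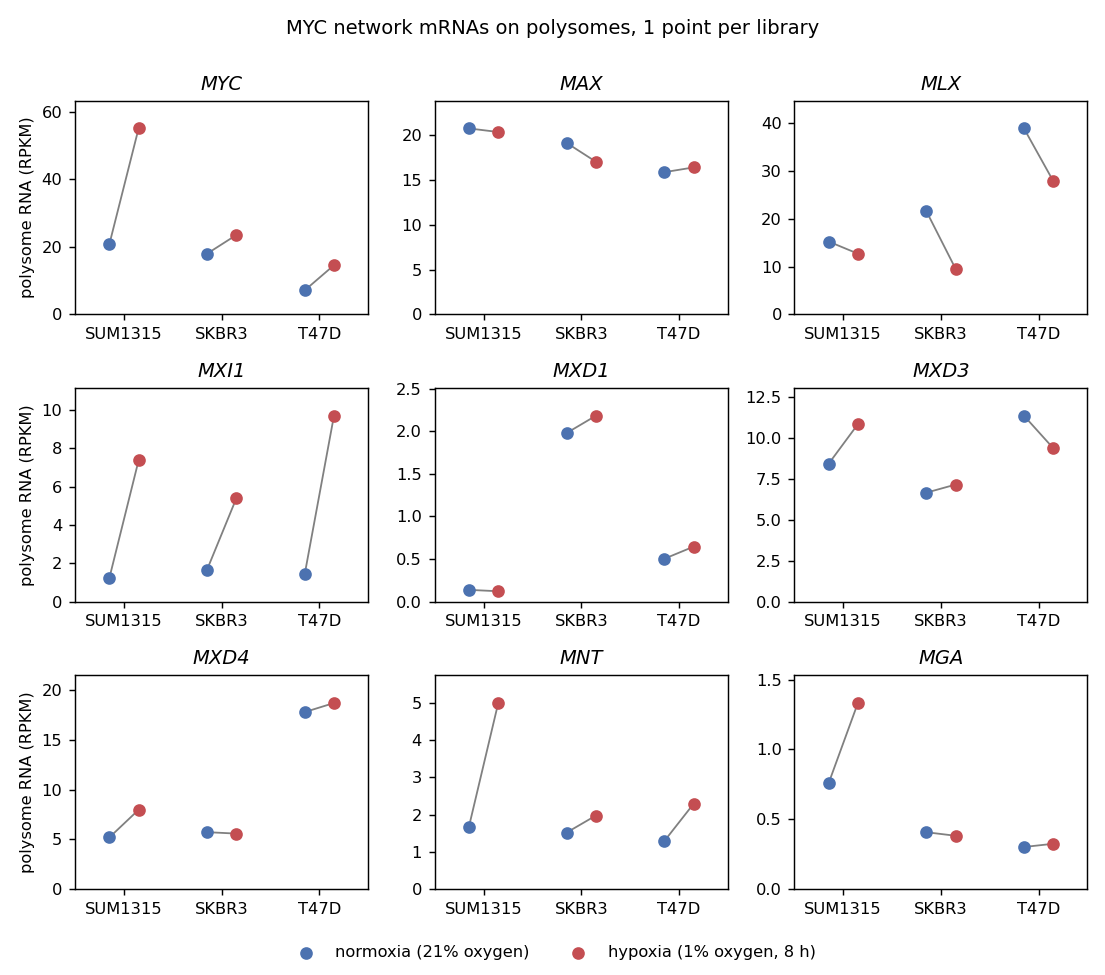
RPKM of each of the 9 members (1 panel each, with its own vertical axis from 0) in normoxia (blue) and hypoxia (red), 1 point per library, with a line joining the libraries of 1 cell line. MXI1 sits between 1.22 and 1.66 RPKM in normoxia and between 5.38 and 9.70 in hypoxia, while MAX stays between 15.9 and 20.8 RPKM in all 6 libraries.

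MYC mRNA on polysomes was higher under hypoxia in all 3 lines. In T47D it went from 7.10 to 14.6 RPKM, in SKBR3 from 17.97 to 23.5 RPKM and in SUM1315 from 20.7 to 55.1 RPKM. The hypoxic and normoxic ranges overlapped, since hypoxic T47D lay below normoxic SUM1315 and SKBR3. The ratio of hypoxia to normoxia was 2.05 in T47D, 1.31 in SKBR3 and 2.66 in SUM1315. The log2 fold change was 0.89 ± 0.19 (SE, n = 3 lines, 95% interval 0.47 to 1.32, limma adjusted p = 0.0266). It ranked 140th from the top of 10253. Without SUM1315 it was 0.66 (limma adjusted p = 0.0706) and without T47D 0.87 (limma adjusted p = 0.0710), so the call was lost in both fits. Over all tested genes, 654 were called with all lines, 823 without SUM1315 and 232 without T47D. With a pseudocount of 5 in place of 1 the MYC log2 fold change was 0.74 (limma adjusted p = 0.0576). The MYC gene lies on chromosome 8 (plus strand, GRCh38).

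MXI1 showed the largest hypoxia change of the 7 tested members. In T47D it went from 1.42 to 9.70 RPKM, in SKBR3 from 1.66 to 5.38 RPKM and in SUM1315 from 1.22 to 7.37 RPKM. The lowest hypoxic library was above the highest normoxic one, an order seen in 2.16% of tested genes (the reverse order, seen in 1.8%, held for no tested member). The ratio was 6.84 in T47D, 3.25 in SKBR3 and 6.05 in SUM1315. The log2 fold change was 1.78 ± 0.17 (SE, n = 3 lines, 95% interval 1.40 to 2.15, limma adjusted p = 0.000717), the 18th largest rise of 10253. With any line left out it stayed between 1.59 and 2.03 and was called each time (limma adjusted p of at most 0.00110). The pseudocount sets much of its size, as normoxic values were low: 2.28 with 0.1 and 0.94 with 5, both called. The call was lost without the cell line term (limma adjusted p = 1.00) and without the expression filter (limma adjusted p = 0.400), settings under which no gene was called. In normoxia the lines differed little (1.43 ± 0.22 RPKM, SD, n = 3), and in hypoxia they stood at 7.48 ± 2.16 RPKM.

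**Figure D2:**
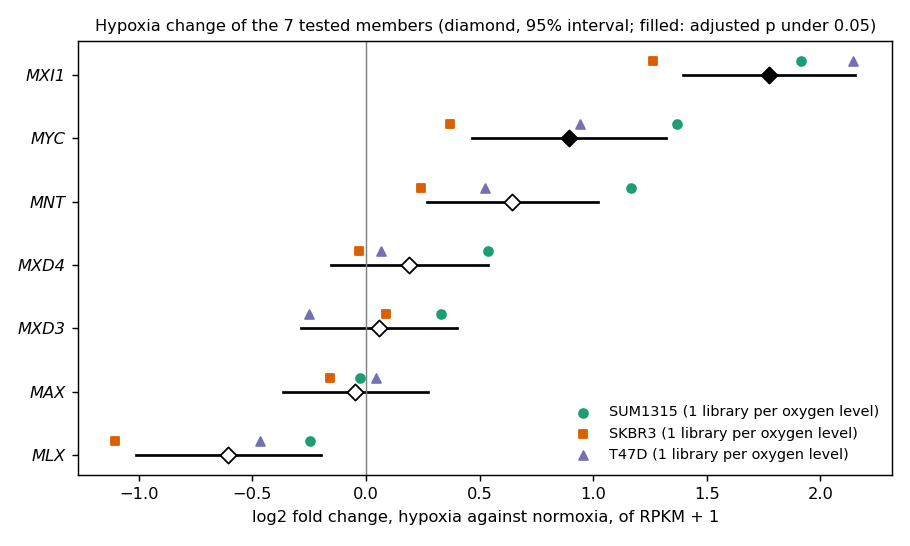
Log2 fold change of RPKM + 1, hypoxia against normoxia, for the 7 tested members. Diamonds with lines are limma estimates with 95% intervals (filled where the adjusted p was under 0.05, which holds for MXI1 and MYC), and coloured symbols are the ratios within SUM1315, SKBR3 and T47D.

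The MXI1 gene spans 110207605 to 110287365 on chromosome 10 (GRCh38, plus strand, GENCODE release 29), and RefSeq places 3 transcript starts in it. The gene-level RPKM do not say which start was used. The stretches before these starts are shown because MXI1 was higher in hypoxia in all 3 lines. Capitals mark the letters ACGTG or GCGTG, the core of the HIF-binding element, on either strand (CACGT or CACGC on the strand printed). Each stretch leaves out annotated untranslated exons. They lie at chr10:110207355-110207604, chr10:110209981-110210230 and chr10:110225746-110225992 of GRCh38.p14 (RefSeq windows).
MXI1 start 1: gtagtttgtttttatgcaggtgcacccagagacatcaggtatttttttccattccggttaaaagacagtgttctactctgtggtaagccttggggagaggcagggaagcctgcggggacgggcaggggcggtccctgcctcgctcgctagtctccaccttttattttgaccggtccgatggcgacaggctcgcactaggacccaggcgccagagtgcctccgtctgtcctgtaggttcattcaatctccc
MXI1 start 2: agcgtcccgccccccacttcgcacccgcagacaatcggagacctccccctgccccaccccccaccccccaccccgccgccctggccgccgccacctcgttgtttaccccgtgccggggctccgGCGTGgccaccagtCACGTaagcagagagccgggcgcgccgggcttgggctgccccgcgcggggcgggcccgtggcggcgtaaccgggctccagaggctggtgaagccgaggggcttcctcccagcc
MXI1 start 3: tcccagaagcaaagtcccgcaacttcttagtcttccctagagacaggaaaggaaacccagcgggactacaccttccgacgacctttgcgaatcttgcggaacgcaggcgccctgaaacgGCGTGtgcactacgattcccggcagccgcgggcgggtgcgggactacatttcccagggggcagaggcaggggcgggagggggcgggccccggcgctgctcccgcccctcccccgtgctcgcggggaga
The first stretch holds no such letters, the second holds GCGTG at 127 and CACGT at 113 bases before the start, and the third holds GCGTG at 131 bases before it. These letters are common: 43.2% of 35116 RefSeq windows of 250 bases hold ACGTG or GCGTG on either strand. Among 13 such windows of 8 members (MYC is not shown), 9 windows of 7 members hold them. A match is a description of letters and shows no binding.

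MNT, the widely expressed repressor that opposes MYC at MAX-bound sites, was also higher in hypoxia in all 3 lines but did not pass the test. Its values were 1.67 and 5.00 RPKM in normoxic and hypoxic SUM1315, 1.52 and 1.97 RPKM in SKBR3, and 1.29 and 2.29 RPKM in T47D. As for MXI1, every hypoxic library was above every normoxic one. The log2 fold change was 0.64 ± 0.17 (SE, n = 3 lines, 95% interval 0.27 to 1.02, limma adjusted p = 0.0501), just above the threshold of 0.05. It passed when SKBR3 was left out (0.85, limma adjusted p = 0.0292), when genes had to reach 1 RPKM in all 6 libraries (limma adjusted p = 0.0112) and with a pseudocount of 0.1 (0.89, limma adjusted p = 0.0464), and with a pseudocount of 5 it was 0.30 (limma adjusted p = 0.0972). Without SUM1315, where the ratio was 2.99, it was 0.38 (limma adjusted p from 0.0292 to 0.160 over the 3 fits that leave out a line). The MNT gene is on chromosome 17 (GRCh38, minus strand, bases 2384060 to 2401118).

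MLX was lower in hypoxia in all 3 lines and did not pass the test. In T47D it went from 38.9 to 27.9 RPKM, in SKBR3 from 21.6 to 9.54 RPKM and in SUM1315 from 15.2 to 12.7 RPKM. The hypoxic and normoxic ranges overlapped, as T47D stood above the other lines at both oxygen levels. Its log2 fold change was -0.61 ± 0.18 (SE, n = 3 lines, 95% interval -1.01 to -0.20, limma adjusted p = 0.0731). It passed without SUM1315 (-0.78, limma adjusted p = 0.0340) and when genes had to reach 1 RPKM in all 6 libraries (-0.61, limma adjusted p = 0.0359). Without SKBR3, which has the largest difference, it was -0.36 (limma adjusted p = 0.207). The MLX gene is on chromosome 17 (GRCh38, plus strand, bases 42567068 to 42573239). Its exons overlap PSMC3IP on the other strand, which stood at 2.23 to 13.6 RPKM, and none of the sources used here says whether counting used the strand. The log2 fold change of PSMC3IP was -0.22 ± 0.15 (limma adjusted p = 0.381).

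The stretches before the MNT and MLX starts are also shown. Both hold the E-box itself, CACGTG, a palindrome that contains ACGTG on both strands. It occurs in 6.35% of the 35116 windows and in 3 of the 13 member windows. The third is that of MXD4, which is not printed and whose hypoxia change was 0.19 (limma adjusted p = 0.454). A link between the E-box and the hypoxia change was not tested. The stretches lie at chr17:2401119-2401310 (minus strand, MNT) and chr17:42566850-42567067 (plus strand, MLX) of GRCh38.p14, with the same letters in capitals.
MNT: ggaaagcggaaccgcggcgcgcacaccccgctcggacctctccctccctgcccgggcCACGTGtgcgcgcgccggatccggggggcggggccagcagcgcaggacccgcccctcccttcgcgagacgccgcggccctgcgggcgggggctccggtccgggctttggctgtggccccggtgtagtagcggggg
MLX: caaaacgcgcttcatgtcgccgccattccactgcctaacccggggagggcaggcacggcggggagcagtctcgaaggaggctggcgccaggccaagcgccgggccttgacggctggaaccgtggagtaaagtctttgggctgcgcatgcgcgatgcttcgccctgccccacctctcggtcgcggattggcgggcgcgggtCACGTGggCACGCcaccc
In MNT the E-box begins 193 bases before the start, and in MLX 50 bases before it. The MLX stretch also holds CACGC, which is GCGTG on the other strand, at 42 bases before the start. The difference of MNT under hypoxia was above 0 and that of MLX below 0, and neither passed.

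MAX, the partner that MYC and its antagonists share, had the smallest SD relative to its mean over the 6 libraries of all 9 members. Its values were 20.8 and 20.4 RPKM in normoxic and hypoxic SUM1315, 19.1 and 17.0 RPKM in SKBR3, and 15.9 and 16.4 RPKM in T47D. Its log2 fold change was -0.0471 ± 0.14 (SE, n = 3 lines, 95% interval -0.37 to 0.27, limma adjusted p = 0.859), and its sign turned under quantile normalization (0.00857) and without SKBR3 (0.00901). Over all 6 libraries MAX stood at 18.3 ± 2.10 RPKM (SD), against 23.2 ± 16.7 RPKM for MYC. In the SUM1315 libraries the ratio of MYC to MAX went from 0.998 to 2.71, in SKBR3 from 0.939 to 1.38, and in T47D from 0.447 to 0.888. MYC mRNA was thus above MAX mRNA in 2 of 3 hypoxic libraries and in none of the normoxic ones, where SUM1315 was near parity. The MAX gene is on chromosome 14 (GRCh38, minus strand, bases 65006174 to 65102695).

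The MXD members other than MXI1 did not move together. MXD3, an antagonist found in proliferating cells, was at 8.40 and 10.8 RPKM in normoxic and hypoxic SUM1315, 6.64 and 7.14 RPKM in SKBR3, and 11.3 and 9.35 RPKM in T47D. Its log2 fold change was 0.0561 ± 0.15 (SE, n = 3 lines, 95% interval -0.29 to 0.40, limma adjusted p = 0.841), and without SUM1315 it was -0.0809. T47D was the 1 line with the lower value in hypoxia. The MXD3 gene is on chromosome 5 (GRCh38, minus strand, bases 177301461 to 177312757). Its exons overlap RAB24 on the same strand (10.8 to 34.8 RPKM) and PRELID1 on the other (152 to 273 RPKM), so its reads are uncertain where they could be divided.

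MXD4, an antagonist linked to differentiated and resting cells, was at 5.18 and 7.96 RPKM in normoxic and hypoxic SUM1315, 5.71 and 5.57 RPKM in SKBR3, and 17.8 and 18.7 RPKM in T47D. Only the SUM1315 pair differed by more than 1.5 times (ratio 1.54). Its log2 fold change was 0.19 ± 0.16 (SE, n = 3 lines, 95% interval -0.15 to 0.54, limma adjusted p = 0.454). Without SUM1315 it was 0.0183. The MXD4 gene is on chromosome 4 (GRCh38, minus strand, bases 2247432 to 2262294).

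MXD1, the founding MXD protein and a marker of differentiation, was mainly an SKBR3 mRNA. It stood at 1.98 and 2.18 RPKM in normoxic and hypoxic SKBR3, 0.503 and 0.645 RPKM in T47D, and 0.138 and 0.122 RPKM in SUM1315. The SUM1315 values stand for 1.46 and 1.31 reads if all came from the shortest annotated transcript and for 16.7 and 14.9 reads from the longest, so a small change there was not detectable at this depth. With all genes fitted and no filter its log2 fold change was 0.07 ± 0.07 (limma adjusted p = 0.644). In that fit it was higher in SKBR3 than in T47D (0.97 ± 0.09, limma adjusted p = 0.0161) and lower in SUM1315 than in T47D (-0.48 ± 0.09, limma adjusted p = 0.0352). The MXD1 gene is on chromosome 2 (GRCh38, plus strand, bases 69897688 to 69942945), and its exons overlap SNRNP27 on the same strand (11.2 to 30.9 RPKM).

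MGA, the large MAX partner, was low throughout. It stood at 0.757 and 1.33 RPKM in normoxic and hypoxic SUM1315, 0.407 and 0.381 RPKM in SKBR3, and 0.301 and 0.324 RPKM in T47D. SUM1315 was the highest line at both oxygen levels and the 1 line with a ratio above 1.5 (1.76). With no filter its log2 fold change was 0.14 ± 0.12 (limma adjusted p = 0.609). Its longest annotated transcript has 14439 bases, on which each T47D value stands for 104 reads, against 3.83 and 3.85 reads on the shortest. The MGA gene is on chromosome 15 (GRCh38, plus strand, bases 41621224 to 41773081).

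The makeup of the network, as shares of the summed RPKM of the 9 members, differed by line and oxygen level. MYC held 28.0% and 45.6% of the sum in normoxic and hypoxic SUM1315, 23.4% and 32.3% in SKBR3, and 7.51% and 14.6% in T47D. MXI1 held 1.64% and 6.10% in SUM1315, 2.16% and 7.40% in SKBR3, and 1.5% and 9.71% in T47D. MLX was the leading member of both T47D libraries, with 41.2% in normoxia and 27.9% in hypoxia. In hypoxic SUM1315 and SKBR3 the leading member was MYC. These shares are descriptions, and no test was made of them.

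In each line MYC was lower relative to MXI1 in hypoxia, and not lower relative to the antagonists together. In T47D the ratio of MYC to MXI1 RPKM went from 5.01 to 1.502, in SKBR3 from 10.9 to 4.37 and in SUM1315 from 17.0 to 7.48. Against the sum of 6 antagonists (MXI1, MXD1, MXD3, MXD4, MNT and MGA), MYC went in T47D from 0.217 to 0.355, in SKBR3 from 1.00 to 1.04 and in SUM1315 from 1.19 to 1.69. Within the MXD family, MXI1 made up 8.15%, 10.4% and 4.56% of the summed RPKM in normoxic SUM1315, SKBR3 and T47D, and 28.0%, 26.6% and 25.2% in hypoxia. Each of these ratios compares 1 library with another and was not tested.

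**Figure D3:**
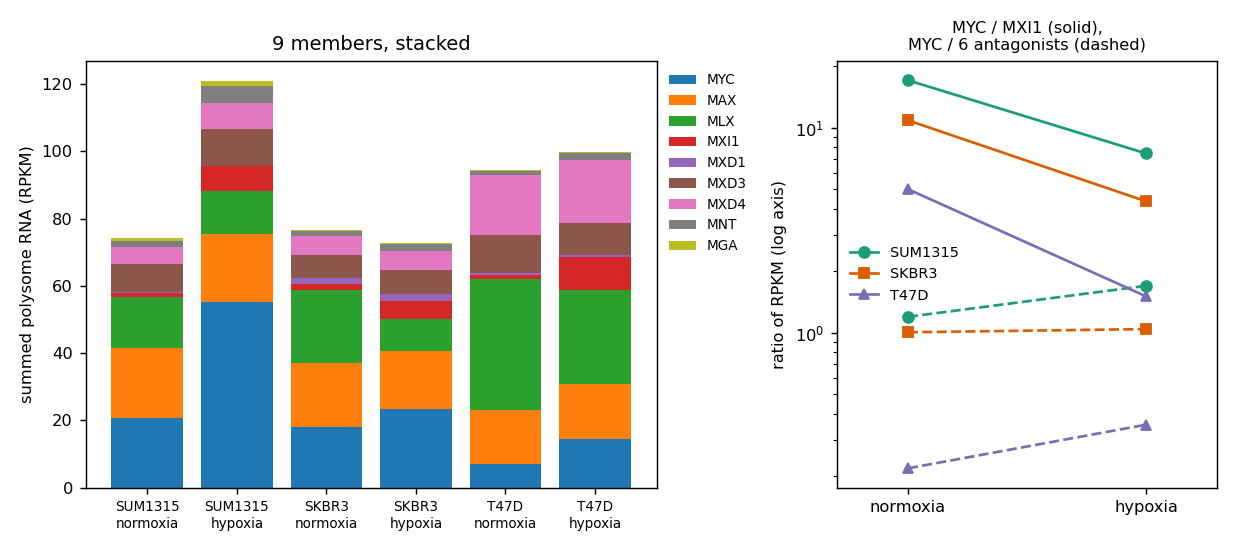
Left, RPKM of the 9 members stacked for each of the 6 libraries. Right, the ratio of MYC to MXI1 RPKM (solid) and of MYC to the sum of 6 antagonists (dashed) in normoxia and hypoxia on a log axis, 1 line per cell line. The solid lines go down in all 3 cell lines and the dashed lines do not.

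Between lines, MYC was called in all 3 comparisons, MXD4 and MLX in both that involve T47D, and MAX and MXI1 in none. Each line was compared with each other line in the same fit, with oxygen level as a term and 2 libraries per line, so the spread is what remains after the oxygen difference. Most genes differ between these lines: 69.8% of tested genes were called between SUM1315 and SKBR3, 69.2% between SUM1315 and T47D, and 57.9% between SKBR3 and T47D. Of the 7 tested members 2, 4 and 4 were called in that order, shares below the first and second of these backgrounds and near the third. SUM1315 was higher than SKBR3 for 2 (41.8% of all tested genes) and lower for none (28%). Against T47D, SUM1315 was higher for 2 (39%) and lower for 2 (30.2%), and SKBR3 was higher for 1 (26.6%) and lower for 3 (31.2%). Without the expression filter several of these calls were lost: MYC between SUM1315 and SKBR3 (limma adjusted p = 0.176) and between SKBR3 and T47D (0.121), MLX between SKBR3 and T47D (0.0693), MXD3 between SKBR3 and T47D (0.145), and both calls of MNT (0.245 and 0.246).

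MYC was highest in SUM1315, then SKBR3, then T47D, at means over the oxygen levels of 37.9, 20.7 and 10.8 RPKM. The log2 difference was 0.70 ± 0.23 between SUM1315 and SKBR3 (limma adjusted p = 0.0223), 1.64 ± 0.23 between SUM1315 and T47D (limma adjusted p = 0.000141) and 0.94 ± 0.23 between SKBR3 and T47D (limma adjusted p = 0.00627). The first rests mainly on the hypoxic libraries, as normoxic SUM1315 and SKBR3 were 20.7 and 17.97 RPKM. When libraries were scaled to equal medians, that difference was 0.47 (limma adjusted p = 0.0950). That scaling moved the median of all tested genes from 0.21 to 0.02 between SUM1315 and SKBR3 and from 0.16 to -0.03 between SUM1315 and T47D.

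MXD4 and MLX had the other order, with T47D highest. MXD4 means were 18.3 RPKM in T47D, 6.57 in SUM1315 and 5.64 in SKBR3. It was lower by 1.37 ± 0.19 (log2) in SUM1315 than in T47D (limma adjusted p = 0.000112) and by 1.54 ± 0.19 in SKBR3 than in T47D (limma adjusted p = 8.78e-05). The difference between SUM1315 and SKBR3 did not pass (0.16 ± 0.19, limma adjusted p = 0.457). It was below 0 with equal medians (-0.0381) and with quantile normalization (-0.0176). MLX means were 33.4 RPKM in T47D, 15.6 in SKBR3 and 13.97 in SUM1315. Its log2 difference was -1.19 ± 0.22 between SUM1315 and T47D (limma adjusted p = 0.000837) and -1.14 ± 0.22 between SKBR3 and T47D (limma adjusted p = 0.00159), and that between SUM1315 and SKBR3 was -0.0498 ± 0.22 (limma adjusted p = 0.851).

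MNT was higher in SUM1315 than in SKBR3 (0.55 ± 0.21, limma adjusted p = 0.0352) and T47D (0.55 ± 0.21, limma adjusted p = 0.0364). Its means were 3.34, 1.75 and 1.79 RPKM. Both calls were lost with equal medians (limma adjusted p = 0.113 and 0.116) and with quantile normalization (0.140 and 0.0903). The comparison of the 2 lower lines did not pass (limma adjusted p = 0.989). MXD3 was lower in SKBR3 than in T47D (-0.52 ± 0.19, limma adjusted p = 0.0370), and its other comparisons did not pass. RAB24, which overlaps MXD3 exons on the same strand, had the same order (10.8 and 13.6 RPKM in SKBR3, 32.7 and 34.8 in T47D). PRELID1, on the other strand, did not (221 and 243 RPKM in SKBR3, 152 and 237 in T47D). The part of overlapping reads in the MXD3 difference was not tested. For MAX and MXI1 the 3 log2 differences were 0.15 to 0.33 for MAX and -0.30 to 0.0652 for MXI1. Among the limits of the 95% intervals, the highest for MAX was 0.72 (SUM1315 against T47D) and the lowest for MXI1 was -0.77 (SKBR3 against T47D).

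**Figure D4:**
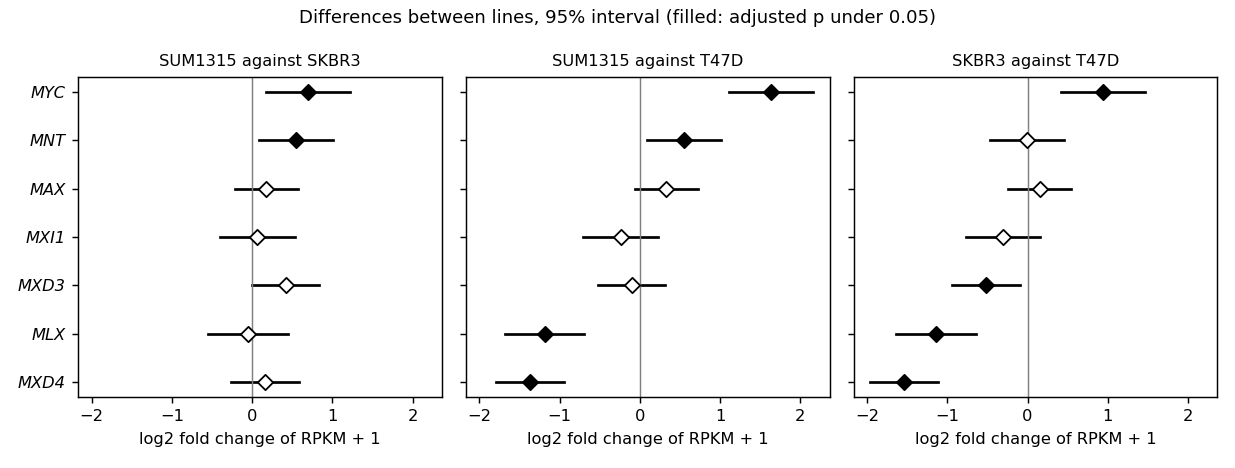
Log2 differences of RPKM + 1 between lines for the 7 tested members, with 95% intervals from limma (filled where the adjusted p was under 0.05). MYC differs in all 3 comparisons, and MLX and MXD4 differ where T47D is one of the lines.

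The genes whose levels over the 6 libraries were most like those of MYC and MXI1 were ranked by Pearson's r of log2(RPKM + 1) among genes with a mean of at least 5 RPKM. All points share lines and oxygen levels, and no test was made. For MYC, out of 5805 genes, they included ZNF581 (r = 0.995), the helicase DDX41 (0.988), the mitotic kinesin KIFC1 (0.976) and the MAP kinase phosphatase DUSP1 (0.976). Of these, KIFC1 (0.57, limma adjusted p = 0.0469) and DUSP1 (1.34, limma adjusted p = 0.0109) rose under hypoxia. For MXI1, out of 5806 genes, they included the glycolytic regulator PFKFB4 (0.974), TP53I13 (0.955), the mitophagy receptor BNIP3 (0.954) and the HIF prolyl hydroxylase EGLN1 (0.951). PFKFB4, BNIP3 and EGLN1 rose, by 1.16 (EGLN1) to 2.80 (BNIP3), and TP53I13 did not pass (0.23, limma adjusted p = 0.312).

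Other genes of the pathway were read from lists, which were chosen with earlier results of these data known. The shares of a list beside those of all tested genes are therefore descriptions, and no set test was made. Of the related factors MYCN, MYCL, MLXIP and MLXIPL, 2 were tested and none passed (limma; of the 2, only MYCL had an unadjusted p under 0.05, at 0.0374). MLXIP, the Mondo partner of MLX also called MondoA, was even across libraries, at 4.69 to 7.16 RPKM (log2 fold change 0.0510 ± 0.13, limma adjusted p = 0.829). In T47D MYCL, a MYC paralog, went from 1.07 to 1.40 RPKM, in SKBR3 from 0.514 to 0.514 RPKM and in SUM1315 from 0.364 to 2.21 RPKM (0.48 ± 0.20, limma adjusted p = 0.165). Without SUM1315 it was 0.10 (limma adjusted p = 0.748), and it ran from 0.17 with a pseudocount of 5 to 0.89 with 0.1. MYCN was at 0 in both SUM1315 libraries and at most 0.124 RPKM elsewhere, so MYC had the highest RPKM of MYC, MYCL and MYCN in all 6 libraries. MLXIPL, the Mondo protein ChREBP, was at most 0.436 RPKM. Of 4 Mondo and MLX targets 3 were tested and none passed (limma), with the thioredoxin inhibitor TXNIP at 0.75 ± 0.28 (limma adjusted p = 0.122). TXNIP was near 0 in SUM1315, and without that line it was 1.12 (limma adjusted p = 0.00103). Without T47D it was 0.22 (limma adjusted p = 0.5996).

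Among 18 tested coactivators and partners of MYC 1 fell (5.56%, against 2.26% of all tested genes) and none rose, with a list median of -0.09. It was the histone acetyltransferase KAT2A, also called GCN5, at -0.73 ± 0.17 (limma adjusted p = 0.0371), a call lost without T47D (limma adjusted p = 0.181), with a pseudocount of 5 (0.0626), with equal medians (0.0505) and with quantile normalization (0.0595). Among 20 genes that control MYC protein turnover, 1 fell (5%) and none rose (median -0.06): PPP2CA, a catalytic subunit of the phosphatase PP2A, which promotes MYC turnover, at -0.76 ± 0.17 (limma adjusted p = 0.0313; 0.138 without T47D and 0.0590 with a pseudocount of 5).

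MXD proteins and MNT recruit the SIN3 corepressor. Of 18 genes listed with it, NCOR1 among them, 2 rose (11.1%, against 4.12% of all tested genes). In this list 1 fell (5.56%, against 2.26%), and the median was 0.00. SAP30 rose by 0.70 ± 0.17 (limma adjusted p = 0.0395) and ARID4A by 0.52 ± 0.13 (limma adjusted p = 0.0444), and BRMS1 had -0.58 ± 0.15 (limma adjusted p = 0.0463). In T47D SAP30 went from 16.6 to 21.1 RPKM, in SKBR3 from 6.85 to 15.2 RPKM and in SUM1315 from 18.7 to 31.4 RPKM. None of these 3 calls held in every fit that left out a line: that of BRMS1 was lost without each of the 3 lines, that of SAP30 without SUM1315 or SKBR3, and that of ARID4A without SUM1315 or T47D. All 3 were also lost with a pseudocount of 5 (limma adjusted p = 0.0598 for SAP30, 0.0772 for ARID4A and 0.0668 for BRMS1). None of 14 partners of MGA in its Polycomb complex passed (limma), 11 of 14 log2 fold changes were below 0 (5211 of 10253 over all tested genes) and the median was -0.15. The lowest was L3MBTL2 (-0.45 ± 0.15, limma adjusted p = 0.0877; unadjusted p = 0.0112). It was called when 1 RPKM was required in all 6 libraries (limma adjusted p = 0.0496), and without SKBR3 it was -0.29 (limma adjusted p = 0.234).

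Textbook MYC-activated genes moved in both directions under hypoxia. Of 62 genes 59 were tested: 8 fell (13.6%, against 2.26% of all tested genes), 4 rose (6.78%, against 4.12%) and 47 did not pass. As the list was chosen with earlier results known, these shares are descriptions. The median of the 59 was -0.12, and within lines it was -0.14 in T47D, 0.0022 in SKBR3 and -0.21 in SUM1315. The largest falls were in the nucleolar protein LYAR (-0.92 ± 0.14, limma adjusted p = 0.00889), the ribosome assembly chaperone GRWD1 (-0.89 ± 0.14, limma adjusted p = 0.00842) and NOP16 (-0.88 ± 0.15, limma adjusted p = 0.0124), which acts in large-subunit assembly. In T47D LYAR went from 16.4 to 8.09 RPKM, in SKBR3 from 8.31 to 4.47 RPKM and in SUM1315 from 50.4 to 23.7 RPKM. The other 5 that fell were RRP9, AIMP2, TMEM97, MRTO4 and PUS1. The rises were HSPD1, a mitochondrial chaperonin (1.08 ± 0.15, limma adjusted p = 0.00588), SHMT2 of one-carbon metabolism (0.80 ± 0.17, limma adjusted p = 0.0245), AHCY of the methionine cycle (0.76 ± 0.16, limma adjusted p = 0.0237) and nucleolin, NCL (0.69 ± 0.15, limma adjusted p = 0.0266). With a line left out, 5 to 7 of the list fell and 1 to 5 rose, the lowest of both counts without T47D, and 2 rose without SKBR3. LYAR, GRWD1, NOP16 and HSPD1 were called in all 3 such fits, and each of the other 8 was lost in at least 1.

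Of 12 genes known to be repressed by MYC, 9 were tested, 2 rose (22.2%, against 4.12% of all tested genes) and none fell (median 0.42). GADD45B, a stress and growth arrest gene, went in T47D from 16.1 to 58.9 RPKM, in SKBR3 from 18.03 to 38.4 and in SUM1315 from 39.0 to 86.3 (1.33 ± 0.18, limma adjusted p = 0.00485). NDRG1, which is also a HIF target, rose by 1.70 ± 0.26 (limma adjusted p = 0.00807). Both calls held with any line left out. With a pseudocount of 5 NDRG1 was 1.01 and not called (limma adjusted p = 0.0698), and with 0.1 it was 2.72. At the low end, CEBPA, a differentiation factor, had -0.41 ± 0.19 (limma adjusted p = 0.205), with -0.70 without SUM1315 (limma adjusted p = 0.0181) and -0.14 without T47D (limma adjusted p = 0.748).

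**Figure D5:**
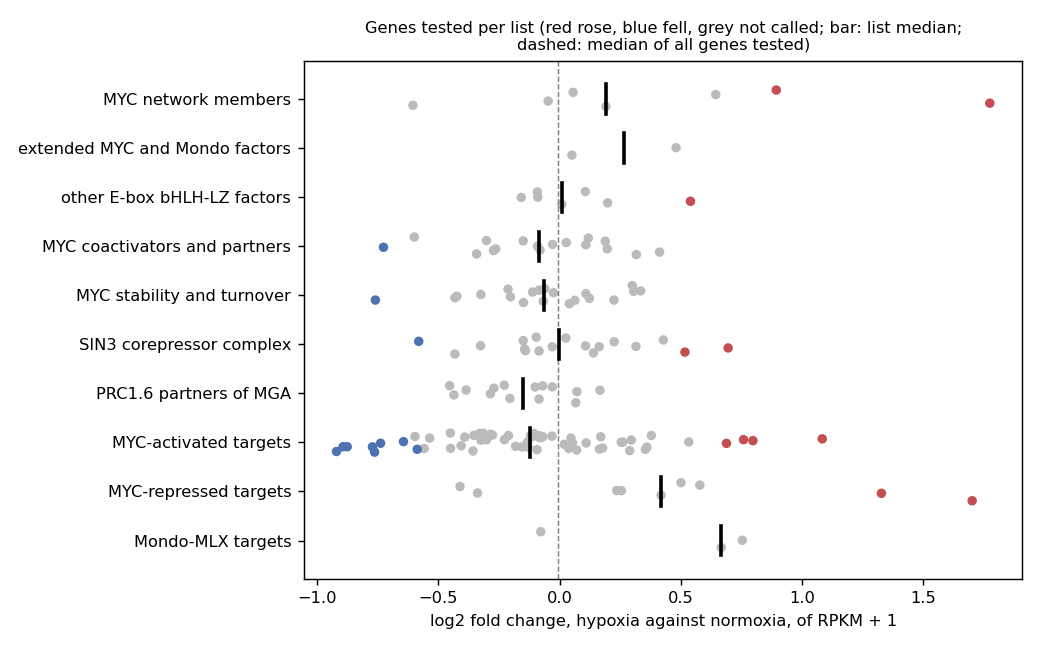
Log2 fold changes of RPKM + 1, hypoxia against normoxia, of each tested gene (points) in the 9 members and 9 lists of related genes. Red points rose, blue points fell and grey points did not pass, the black bar is the list median, and the dashed line is the median of all tested genes. MYC-activated targets hold 8 blue and 4 red points.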

How the data were processed

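Polysome RNA of 6 libraries was analysed, 3 per oxygen level. The authors deposited 1 table of RPKM values with 1 column per library. Its header names no unit, and RPKM was taken as the unit. Among genes with only 1 transcript in GENCODE release 29, 69.6% to 73.1% of 2450 to 2672 low values times length were whole multiples of 1 step (tolerance 0.02 of a step, chance 4%). This step also gave the depth. Such steps show read counts scaled by length and do not by themselves tell RPKM from other such units. The columns summed to 2.54e+05 to 2.98e+05, not to a common total. Per the submitters' processing notes, the tools were HISAT2, Partek, SAMtools and Trimmomatic, with GRCh38 and hg38 named as builds and no versions. None of the sources used here names the annotation or the strand setting.

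The 10253 genes reaching 1 RPKM in 3 or more libraries were fitted with limma 3.58.1 (R 4.3.3) on the scale log2(RPKM + 1), with a term for the cell line, a mean-variance trend and two-sided Benjamini-Hochberg adjusted p-values. Line contrasts came from the same fit. With 2 residual degrees of freedom and a prior of 8.02, most of each SE is shared across genes. Fits that leave out a line have fewer residual degrees of freedom and a prior of their own. A smaller p there than in the full fit is therefore not stronger evidence. No line is replicated within an oxygen level, so p-values measure the spread between these libraries. The lines pair the libraries: deviations of a line's libraries from the oxygen means correlated at 0.94 to 0.97. On simulated data, 98% of 100 genes changed by 1 (log2) and 99% of 100 changed by 2 were recovered among 10253. Genes of like level were given the same normal noise there. The differences in spread between genes of the real data were thus left out, and these shares do not give the power for the real data.

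The members and lists were chosen with earlier results of these data known. Named are all members, the called genes of each list (at most 3 each way with values, or its extremes) and the 5 genes most like each called member. Some genes that this rule names are not reported here. MXD1 and MGA were below the filter. Alternatives covered the pseudocount (0.1, 5), filter, scaling, trend, block and each line left out. The read numbers given for MXD1 and MGA span the shortest and longest annotated transcripts and do not include counting error.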

Additional observations from a re-analysis of the deposited data

Results flagged for a closer look

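For 5 members the lines moved in opposite directions under hypoxia, each on 1 library per oxygen level, so the difference was not tested. The largest gap between log2 ratios was 0.58 for MXD3 (SUM1315 minus T47D), then 0.57 for MXD4 (SUM1315 minus SKBR3), 0.44 for MGA (SUM1315 minus SKBR3), 0.20 for MAX (T47D minus SKBR3) and 0.15 for MXD1 (T47D minus SUM1315). MGA and MXD1 were below the expression filter.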

How the results depend on the processing

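MXI1 and MYC kept the sign of their hypoxia change in all alternatives run. Neither was called without the replicate block for cell line (log2 fold changes of 1.78 and 0.89 as before, limma adjusted p = 1.00 for both) or without the expression filter (1.78 and 0.89, limma adjusted p = 0.400 and 0.453), fits that called no gene in either direction (0 higher, 0 lower, and 68 and 2715 genes at an unadjusted p under 0.05). With a pseudocount of 5, 171 genes were higher and 72 lower, against 422 and 232, and MYC was not called (0.74). With 1 RPKM required in all 6 libraries, 459 genes were lower, and MNT (0.64) and MLX (-0.61) were called. With a pseudocount of 0.1, MNT was called (0.89). With a line left out, 179 to 552 genes were higher and 53 to 271 lower, fewest without T47D, and MYC ran from 0.66 (without SUM1315) to 1.16 and was 0.87 without T47D, MNT from 0.38 to 0.85, MLX from -0.78 to -0.36, MAX from -0.09 to 0.00901 and MXD3 from -0.0809 to 0.21. MYC-activated genes that fell were 4 with a pseudocount of 5 and 5 with quantile normalization, and 0 fell and 0 rose without the block or the filter; with a line left out 5 to 7 fell and 1 to 5 rose (2 without SKBR3). Signs turned for MAX under hypoxia with quantile normalization (0.00857) and for ARRDC4 without SKBR3 (0.0303). Between SUM1315 and SKBR3 they turned with equal medians for MAX (-0.0461), MXD4 (-0.0381) and MXI1 (-0.111) and with quantile normalization for MXD4 (-0.0176) and MXI1 (-0.0789). Between SKBR3 and T47D they turned for MNT with a pseudocount of 0.1 (0.00803) and with quantile normalization (0.0623). The cause was not tested. None of these turned values was past the threshold. Depth limits MXD1 in SUM1315, where few reads stand behind each value.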

Other observations

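Other factors with the same kind of DNA-binding domain, which also bind E-box-like sites, were mostly steady. Of 8 such genes 7 were tested, and SREBF1, which drives lipid synthesis, was the 1 that rose (14.3%, against 4.12% of all tested genes; 0.54 ± 0.14, limma adjusted p = 0.0492). In T47D it went from 4.10 to 7.11 RPKM, in SKBR3 from 15.9 to 20.8 RPKM and in SUM1315 from 4.62 to 7.45 RPKM, and the call was lost without SUM1315 (limma adjusted p = 0.151) or T47D (limma adjusted p = 0.214), with a pseudocount of 5 (0.0787), with equal medians (0.0603) and with quantile normalization (0.0510). USF1 was the lowest of the list, at -0.16 ± 0.15 (limma adjusted p = 0.522).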
